A study of Mus musculus with 12 samples.

Results

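Cathepsins are the proteases of the lysosome and endosome, and their mRNA was followed here in leukocytes taken from the prostate of mice that had received T cells. The genes described are Ctsa, Ctsb, Ctsc, Ctsd, Ctse, Ctsh, Ctsk, Ctsl, Ctss and Ctsz. They were chosen by symbol, and 21 of the 45281 probes on the array are annotated to these 10 genes. A probe was kept where its detection p was under 0.05 on 3 or more of the 12 arrays, which held for 20 of the 21 probes and for 23054 probes in all, and all 10 genes kept at least 1 probe, among 11971 genes that did. The remaining probe, the second one for Ctsb (ILMN_2593604), was above background on 1 Tumor array and was not tested.

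The RNA came from CD45+ cells, that is cells carrying the common leukocyte surface marker, of the prostate of C57Bl/6 TRAMP mice, which develop prostate cancer because they carry a viral oncogene under a prostate epithelial promoter. All 4 groups carry that transgene and all received adoptive T cell transfer (ACT), so no mouse without tumour transgene or without transfer serves as a control. The groups, of 3 mice each, are Tumor+Allo/Y (d28), taken 28 days after the combined ACT (samples 10, 11 and 12), Tumor+Allo/Y, taken 1 week after it (samples 7, 8 and 9), Tumor, taken 1 week after Tumor ACT (samples 4, 5 and 6), and Allo/Y, taken 1 week after Allo/Y ACT (samples 1, 2 and 3). What Allo/Y stands for is not spelled out in the labels. The Allo/Y group served as the base of 3 of the 6 comparisons, which therefore share its arrays.

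Cathepsins are made as inactive precursors, sorted to acidic vesicles by mannose 6-phosphate receptors and other sorting receptors, and activated there by cleavage. Most are cysteine proteases, while Ctsd and Ctse are aspartic proteases and Ctsa is a serine carboxypeptidase. In antigen-presenting cells they degrade ingested protein and the invariant chain of major histocompatibility complex class II, and in cytotoxic cells and neutrophils they activate granule proteases. For the description the genes were put into 3 lists: cathepsins known from leukocytes (Ctss, Ctsc, Ctsz and Ctsh), broadly expressed ones (Ctsa, Ctsb, Ctsd and Ctsl), and ones known from epithelium and stroma (Ctse and Ctsk).

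Promoter sequence is shown for Ctss, Ctsc and Ctsz because the probes of these genes followed one another closely over the 12 arrays, correlating between genes at 0.91 to 0.98. Single probes of Ctsa (0.93 with Ctss) and of Ctsh (0.92 with Ctsc) came about as close as Ctss and Ctsz. The choice rests on these same data. The sequences are the 250 bases before the start site that the promoter table uses, 5′ to 3′ on the gene's strand, from RefSeq in the GRCm38.p6 build (Ctss at chr3:95526536-95526785, plus strand, Ctsc at chr7:88277835-88278084, plus strand, Ctsz at chr2:174439040-174439289, minus strand). For Ctsc that start site lies downstream of the outermost annotated start, so that the last 61 bases shown are inside the gene. Capitals mark matches to the motifs searched.
Ctss: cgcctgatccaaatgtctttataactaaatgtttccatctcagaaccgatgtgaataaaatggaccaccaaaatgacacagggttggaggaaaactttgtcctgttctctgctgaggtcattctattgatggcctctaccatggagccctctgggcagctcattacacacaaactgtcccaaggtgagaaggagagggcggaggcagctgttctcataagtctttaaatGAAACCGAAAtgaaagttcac
Ctsc: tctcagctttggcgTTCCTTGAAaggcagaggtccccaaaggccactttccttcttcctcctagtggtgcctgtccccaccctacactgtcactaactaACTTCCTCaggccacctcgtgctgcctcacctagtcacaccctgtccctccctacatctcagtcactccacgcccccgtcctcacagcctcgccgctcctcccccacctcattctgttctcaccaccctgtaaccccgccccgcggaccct
Ctsz: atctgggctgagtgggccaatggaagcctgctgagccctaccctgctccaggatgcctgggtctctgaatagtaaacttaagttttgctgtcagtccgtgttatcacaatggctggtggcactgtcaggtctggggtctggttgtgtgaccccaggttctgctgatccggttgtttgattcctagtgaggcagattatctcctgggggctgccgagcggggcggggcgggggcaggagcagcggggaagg
The motifs were searched on both strands in the 8 windows listed for 7 of the 10 genes, 2 of them for Ctsa, and distances are from those start sites. The windows of Ctsl and the second of Ctsa lie wholly inside their genes' outermost bounds. The core of the interferon-stimulated response element (GAAA, any 2 bases, GAAA) was found at 21 bases before the start of Ctss and in no window of the other 6 genes, against 2.98% of all 32851 promoter windows of this length. The gamma-activated site (TTCNNNGAA, 7.02% of windows) and the PU.1 core (GAGGAAGT, 2.44% of windows) were found in the Ctsc window, at 236 and 151 bases before the start, the PU.1 core on the opposite strand. The E-box core of the CLEAR element (CACGTG, 6.02% of windows), a motif of lysosomal genes, lay in windows of Ctsa, Ctsd and Ctsl, 3 of the 7 genes. None of these motifs was found in the windows of Ctsz and Ctsk, and no matches overlapped. The letters alone are described here, and binding was not measured.

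Levels below are log2 normalized intensities, and differences are log2 differences ± SE from one limma fit to all 12 arrays, with n = 3 arrays per group. A probe was called where its Benjamini-Hochberg adjusted p over all 23054 probes was under 0.05. Between 18981 and 21718 probes were above background per array. The arrays also differed in what cells they reported on. The mean log2 level of 15 measured genes of all leukocytes was 11.36 in Tumor+Allo/Y (d28), 11.45 in Tumor+Allo/Y and 11.30 in Tumor, against 9.36 in Allo/Y, and all 15 genes were called higher than Allo/Y in each of the other groups. The mean over 14 measured genes of prostate and seminal vesicle epithelium ran the other way, at 11.09, 10.44 and 10.25 in those 3 groups and 12.31 in Allo/Y, although the cells are labelled CD45+. Of those 14 genes, 1 was called lower than Allo/Y in Tumor+Allo/Y (d28), 6 in Tumor+Allo/Y and 6 in Tumor, and none higher. Over all 11971 genes, 2902, 3212 and 2565 were called lower in the same groups, and 2235, 2421 and 2124 higher. The day 28 count of 1 in 14 is below the share called lower over all genes. Of the 16 listed epithelial genes, Epcam was above background on no array and Pbsn only in Allo/Y. The epithelial level ranged from 8.37 in Tumor sample 6 to 11.21 in Tumor sample 4, and in Tumor+Allo/Y it was highest in sample 8, at 11.27. Both arrays stand apart from their groups. By Pearson's r over all 23054 probes, the match of sample 6 was 0.905 to 0.931 with the other Tumor arrays but 0.975 with sample 9 of Tumor+Allo/Y. Sample 8 matched its own group at 0.956 to 0.958 and the Tumor arrays 4 and 5 at 0.982 to 0.983. In such bulk samples fewer cells of a type and less RNA per cell cannot be told apart, and the part of these marker levels in the results below was not tested beyond the values given.

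Against Allo/Y, the cathepsins known from leukocytes were higher after the combined transfer when measured against all RNA on the array. On a scale set to equal leukocyte markers no cathepsin probe was called higher, and of all 23054 probes only 215 were. Against all RNA, Ctse was lower on 2 of its 3 probes, and Ctsd, Ctsl and Ctsk were not called. In Tumor+Allo/Y against Allo/Y, 11 of the 20 cathepsin probes were called higher, against 20.9% of all probes, 2 were called lower, against 23.7%, and 7 were not called. The median difference was 0.62 over the cathepsin probes and 0.02 over all probes. By gene, taking the probe with the highest mean, all 4 leukocyte cathepsins were higher, with a median of 1.76, and 2 of the 4 broadly expressed ones were, with a median of 0.41, while neither of the other 2 genes was called. In Tumor against Allo/Y, 10 cathepsin probes were called higher (17.7% of all probes), 1 lower (19.1%) and 9 were not called, with medians of 0.52 and 0.03. The groups did not overlap for 13 cathepsin probes in the first of these comparisons (59.6% of all probes) and for 12 in the second (54.2%). Without samples 6 and 8 the calls were 12 higher and 3 lower for Tumor+Allo/Y, and 10 higher and 2 lower for Tumor. Of all 23054 probes, 6484 were then called higher and 6635 lower for Tumor+Allo/Y, up from 4807 and 5466, and 3933 and 4585 for Tumor. The F test among the 4 groups called 13 of the 20 cathepsin probes and 42.9% of all probes.

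**Figure D1:**
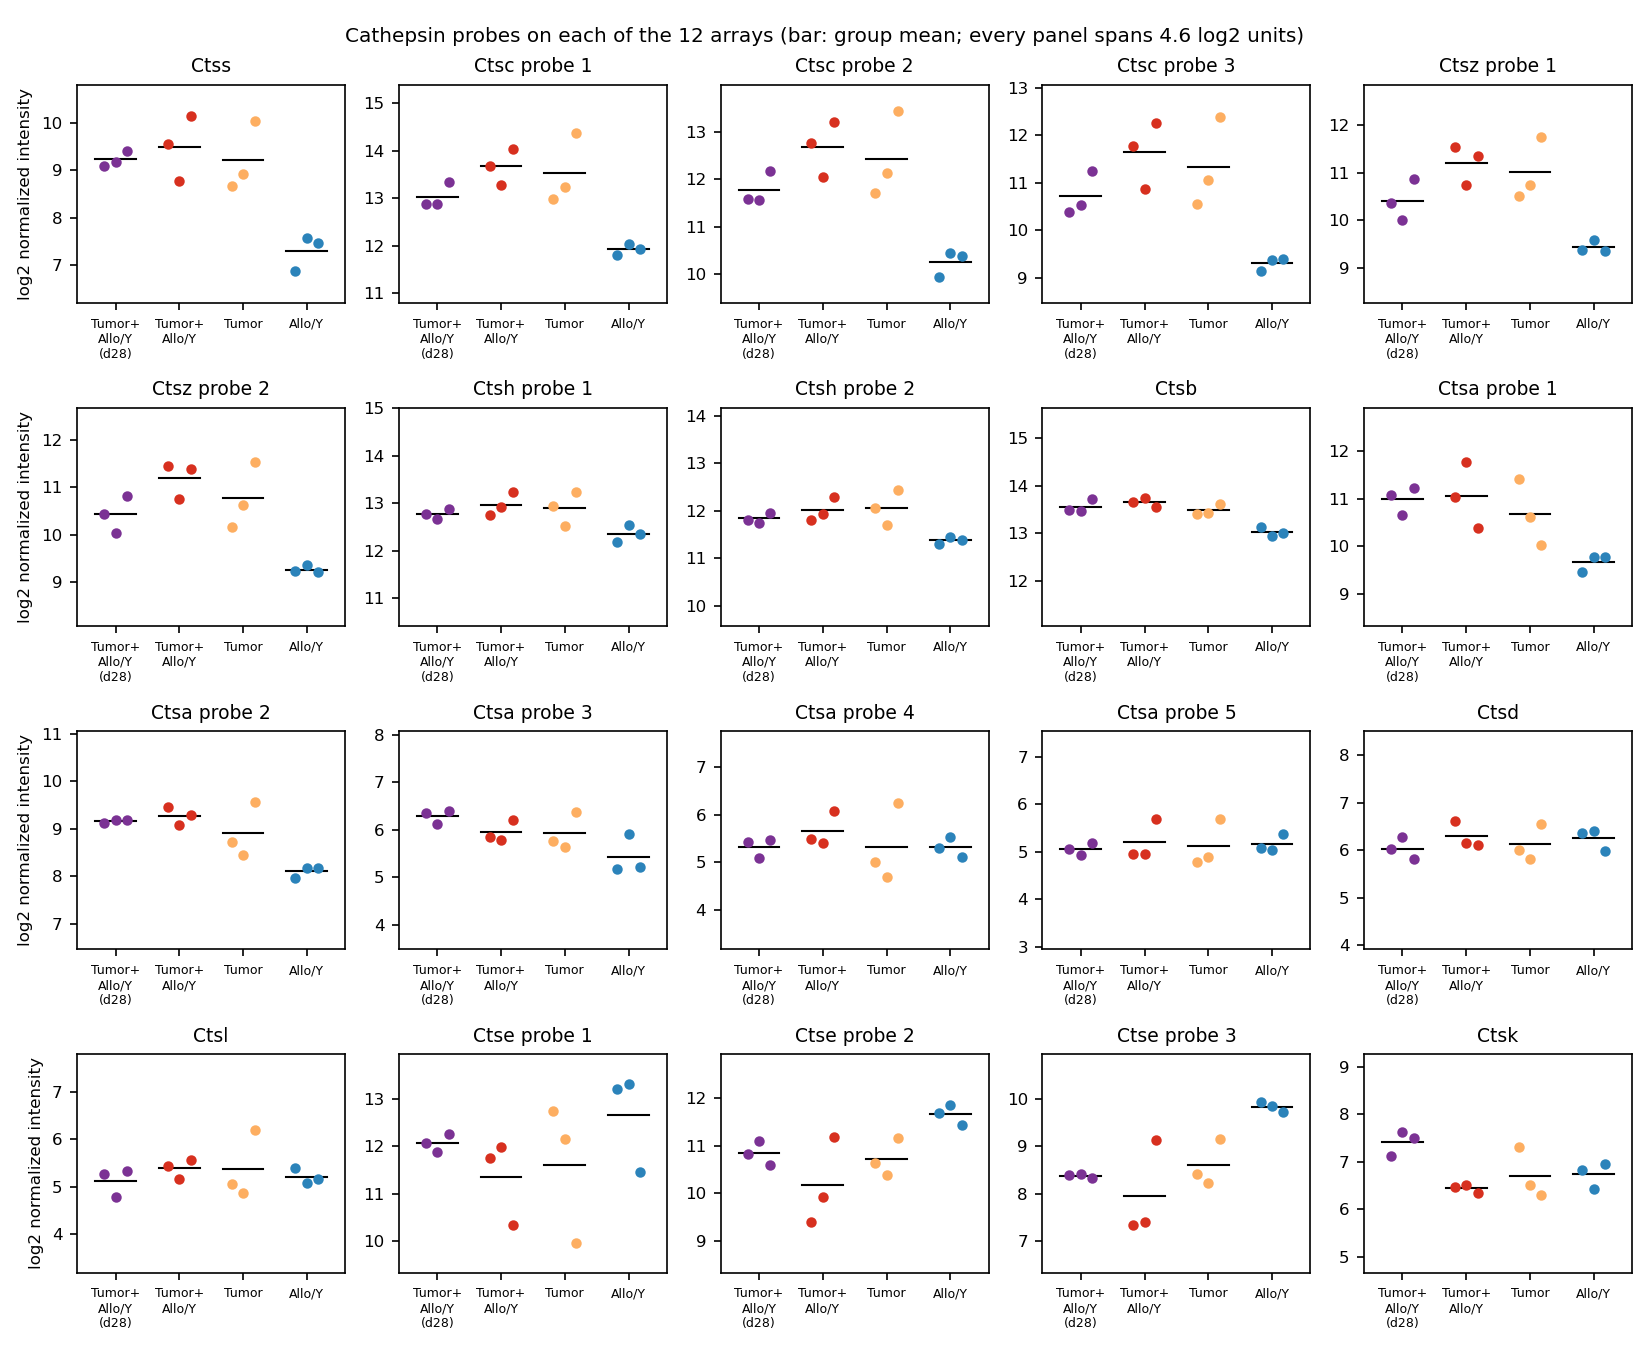
Log2 normalized intensity of the 20 cathepsin probes above background, with 1 point per array, a bar at each group mean and groups in columns. All panels have the same height in log2 units, so that spreads can be compared between panels, and the Allo/Y points lie below all others for Ctss, Ctsc and Ctsz and above all others for Ctse probes 2 and 3.

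Ctss, the cysteine protease that removes the invariant chain from class II molecules in antigen-presenting cells, had 1 probe (ILMN_1246861). Its level was 9.10, 9.18 and 9.42 in Tumor+Allo/Y (d28), 9.56, 8.78 and 10.14 in Tumor+Allo/Y, and 8.68, 8.92 and 10.04 in Tumor, against 6.88, 7.57 and 7.47 in Allo/Y. Every array of the first 3 groups was above every Allo/Y array, and those 3 groups overlapped one another. The difference from Allo/Y was 2.18 ± 0.39 in Tumor+Allo/Y, a 4.54-fold higher level (adjusted p = 0.00163), 1.90 ± 0.39 in Tumor (adjusted p = 0.00457) and 1.92 ± 0.39 in Tumor+Allo/Y (d28) (adjusted p = 0.003). With the epithelial marker level as a covariate the difference was 1.20 ± 0.26 in Tumor+Allo/Y (adjusted p = 0.00731) and 0.83 ± 0.27 in Tumor, which was then not called (adjusted p = 0.0659).

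Ctsc, dipeptidyl peptidase I, which activates the granzymes of cytotoxic cells and the serine proteases of neutrophils, had 3 probes that correlated at 0.99 to 1 with one another. Probe 1 (ILMN_3008858) had levels of 12.89, 12.88 and 13.35 in Tumor+Allo/Y (d28), 13.69, 13.29 and 14.05 in Tumor+Allo/Y, and 12.99, 13.25 and 14.38 in Tumor, against 11.82, 12.04 and 11.94 in Allo/Y. The 3 Allo/Y arrays lay close together (SD 0.11) and below all others, while the Tumor group was the widest and held the highest array of all, sample 6. The 3 probes were higher than in Allo/Y by 1.74 ± 0.33, 2.41 ± 0.42 and 2.32 ± 0.46 in Tumor+Allo/Y (adjusted p from 0.00142 to 0.00272) and by 1.61 ± 0.33, 2.17 ± 0.42 and 2.02 ± 0.46 in Tumor (adjusted p from 0.00356 to 0.00756). The size of the difference thus depended on the probe, from 3.35-fold to 5.32-fold in Tumor+Allo/Y. With the epithelial marker level as a covariate all 3 calls held in Tumor+Allo/Y, and in Tumor those of probes 1 and 2 held (0.67 ± 0.19 and 0.95 ± 0.25) and that of probe 3 did not (0.74 ± 0.31, adjusted p = 0.134).

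Ctsz, a carboxypeptidase of monocytes and macrophages also called cathepsin X, had 2 probes that correlated at 0.99. Probe 1 (ILMN_2839569) had levels of 10.37, 10.00 and 10.86 in Tumor+Allo/Y (d28), 11.53, 10.74 and 11.35 in Tumor+Allo/Y, and 10.51, 10.74 and 11.76 in Tumor, against 9.36, 9.59 and 9.35 in Allo/Y. Again no array of the other groups reached down to the Allo/Y arrays. The 2 probes were higher by 1.78 ± 0.33 and 1.93 ± 0.33 in Tumor+Allo/Y (adjusted p = 0.00207 and 0.00123) and by 1.57 ± 0.33 and 1.5 ± 0.33 in Tumor (adjusted p = 0.00548 and 0.00622). With the epithelial marker level as a covariate, the Tumor differences were 0.65 ± 0.23 and 0.60 ± 0.23 and were not called (adjusted p = 0.0842 and 0.102).

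Ctsh, an aminopeptidase that also trims granule proteases and surfactant proteins, differed less. Its probe 1 (ILMN_2872058) had levels of 12.77, 12.67 and 12.88 in Tumor+Allo/Y (d28), 12.76, 12.92 and 13.25 in Tumor+Allo/Y, and 12.95, 12.53 and 13.25 in Tumor, against 12.18, 12.54 and 12.35 in Allo/Y. Tumor sample 5 fell just below the highest Allo/Y array, so that these 2 groups overlapped. Both probes were called higher in Tumor+Allo/Y, by 0.61 ± 0.20 and 0.64 ± 0.19 (adjusted p = 0.0266 and 0.0206), and in Tumor, by 0.55 ± 0.20 and 0.69 ± 0.19 (adjusted p = 0.048 and 0.0181). These calls were among the least stable. Both probes lost the Tumor+Allo/Y call without Tumor+Allo/Y sample 9 (adjusted p = 0.101 and 0.0815), without Allo/Y sample 1 (0.0954 and 0.0662), without Allo/Y sample 3 (0.0669 and 0.0538) and with the epithelial covariate (0.353 and 0.308), and probe 1 lost the Tumor call under 10 of the 12 omissions of a single array.

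Among the broadly expressed cathepsins, Ctsb, a cysteine protease with both endopeptidase and carboxypeptidase activity, was raised by a smaller amount with little spread. Its probe (ILMN_2683316) had levels of 13.49, 13.47 and 13.71 in Tumor+Allo/Y (d28), 13.66, 13.75 and 13.54 in Tumor+Allo/Y, and 13.40, 13.43 and 13.62 in Tumor, against 13.13, 12.93 and 13 in Allo/Y. No array overlapped with Allo/Y, and the differences were 0.63 ± 0.13 in Tumor+Allo/Y (adjusted p = 0.00303), 0.46 ± 0.13 in Tumor (adjusted p = 0.0174) and 0.53 ± 0.13 in Tumor+Allo/Y (d28) (adjusted p = 0.0069). The Tumor call was lost without Tumor sample 6 (adjusted p = 0.0535), Allo/Y sample 2 (0.0611) or Allo/Y sample 3 (0.0544) and with the epithelial covariate (0.15).

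Ctsa, the carboxypeptidase that holds beta-galactosidase (Glb1) and neuraminidase (Neu1) together in the lysosome, had 5 probes that did not give one account. Probe 1 (ILMN_2669714) had levels of 11.08, 10.66 and 11.24 in Tumor+Allo/Y (d28), 11.05, 11.77 and 10.39 in Tumor+Allo/Y, and 11.42, 10.61 and 10.02 in Tumor, against 9.47, 9.77 and 9.78 in Allo/Y. Probe 2 (ILMN_1213617) had levels of 9.12, 9.19 and 9.18 in Tumor+Allo/Y (d28), 9.46, 9.09 and 9.29 in Tumor+Allo/Y, and 8.73, 8.45 and 9.56 in Tumor, against 7.96, 8.18 and 8.17 in Allo/Y. Both probes separated Allo/Y from the rest, but within the Tumor group they ordered the arrays differently, since sample 6 was lowest on probe 1 and highest on probe 2. Against Allo/Y, probe 1 was higher by 1.39 ± 0.38 in Tumor+Allo/Y (adjusted p = 0.0135) and was not called in Tumor, at 1.01 ± 0.38 (adjusted p = 0.0594). Probe 2 was higher in both, by 1.18 ± 0.24 (adjusted p = 0.00322) and 0.81 ± 0.24 (adjusted p = 0.024). With the epithelial covariate the Tumor difference of probe 2 was 0.17 (adjusted p = 0.584), and the call was also lost without Allo/Y sample 1 (0.0817), 2 (0.0508) or 3 (0.0547). The remaining probes, whose means lay between 5.14 and 5.90 near background, were not called in either comparison. Correlations between pairs of Ctsa probes ran from -0.45 to 0.80. The genes whose levels followed probe 1 most closely were Pltp, a phospholipid transfer protein, at r = 0.957 over the 12 arrays, Fcgrt (0.94) and Chst2 (0.934). In the GRCm38.p6 annotation Pltp and Ctsa overlap at their ends on opposite strands, and Neurl2 also overlaps Ctsa on the opposite strand. The overlap was looked up after the Pltp value was seen, and the positions of the probes were not used here. Its part in the values of probe 1 was not tested.

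Ctsd, the main aspartic protease of the lysosome, and Ctsl, a cysteine protease, had dim probes and were not called in any comparison. The Ctsd probe (ILMN_2987685) was above background on all 12 arrays and ranged from 5.81 to 6.61. The Ctsl probe (ILMN_2904703) was above background on 10 arrays and ranged from 4.78 to 6.19. In Tumor+Allo/Y against Allo/Y their differences were 0.05 (95% interval -0.45 to 0.55) and 0.18 (-0.49 to 0.85), so that differences of the size seen for Ctsb lie inside the Ctsl interval. A single probe this dim limits what can be said of either gene.

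**Figure D2:**
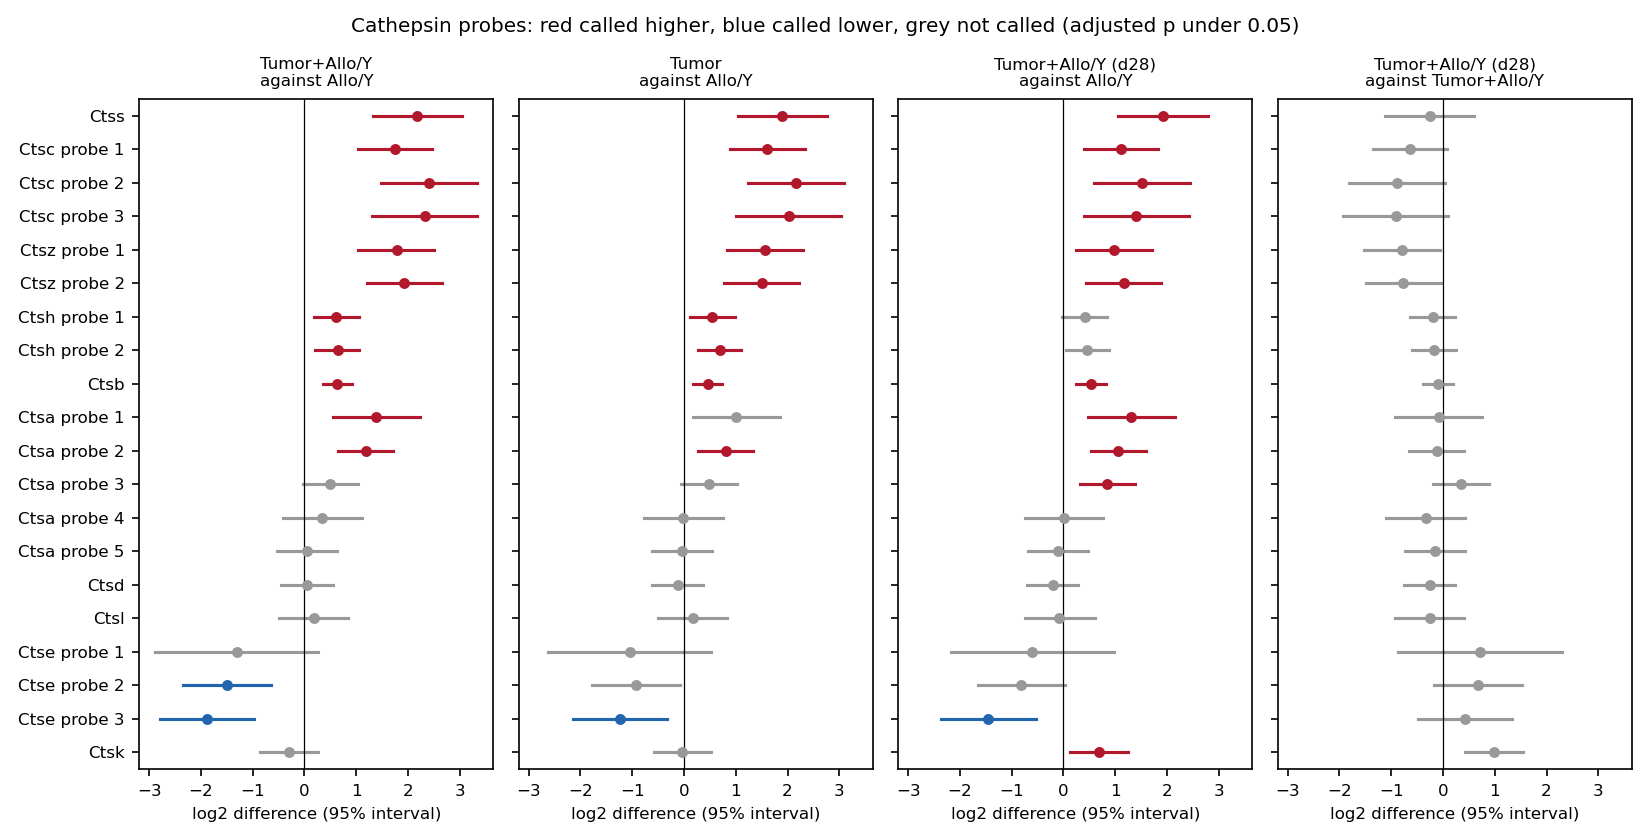
Log2 difference with its 95% interval for each of the 20 cathepsin probes in 4 of the comparisons, positive where the group named first was higher. Red intervals in the 3 comparisons with Allo/Y are those of Ctss, Ctsc, Ctsz and parts of Ctsh, Ctsb, Ctsa and Ctsk, and every interval is grey in the comparison of day 28 with 1 week.

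Ctse, an aspartic protease of endosomes known from gastric epithelium and from some immune cells, was measured by 3 probes. Probe 3 (ILMN_1228235) had levels of 8.39, 8.42 and 8.32 in Tumor+Allo/Y (d28), 7.33, 7.40 and 9.13 in Tumor+Allo/Y, and 8.41, 8.22 and 9.16 in Tumor, against 9.94, 9.84 and 9.72 in Allo/Y. Probe 2 (ILMN_2960325) had levels of 10.82, 11.10 and 10.60, of 9.40, 9.91 and 11.18, and of 10.63, 10.39 and 11.16 in those groups, against 11.69, 11.85 and 11.44 in Allo/Y. On both, every Allo/Y array was above all others, and samples 9 and 6 were the highest of their groups. Probe 3 was lower than in Allo/Y, with differences of -1.88 ± 0.41 in Tumor+Allo/Y (adjusted p = 0.00473) and -1.23 ± 0.41 in Tumor (adjusted p = 0.0383). Probe 2 was lower in Tumor+Allo/Y, at -1.5 ± 0.38 (adjusted p = 0.00986), and was not called in Tumor, at -0.93 ± 0.38 (adjusted p = 0.0789). The Tumor call of probe 3 was lost under 8 of the 12 omissions of a single array.

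Probe 1 of Ctse (ILMN_1222071), for which the array annotation used here lists no transcript, ordered the arrays differently. Its levels were 12.08, 11.88 and 12.26 in Tumor+Allo/Y (d28), 11.76, 11.98 and 10.35 in Tumor+Allo/Y, and 12.74, 12.15 and 9.96 in Tumor, against 13.21, 13.32 and 11.47 in Allo/Y. Samples 9 and 6, highest of their groups on the other probes, were lowest here, and no comparison was called (Tumor+Allo/Y against Allo/Y -1.31 ± 0.71, adjusted p = 0.158). Over the 12 arrays probes 2 and 3 correlated at 0.96 with each other and at 0.11 and 0.08 with probe 1. With the epithelial marker level, probe 1 correlated at 0.80 and probes 2 and 3 at 0.33 and 0.31. All arrays share the group structure that such correlations rest on. With the epithelial covariate the difference of probe 3 in Tumor+Allo/Y was -2.55 ± 0.45 (adjusted p = 0.00267) and that of probe 1 was 0.23 ± 0.64 (adjusted p = 0.821). The 3 probes therefore do not order the arrays alike, although all 3 had a lower mean in Tumor+Allo/Y than in Allo/Y, a difference that was called for probes 2 and 3 and not for probe 1, whose SE was larger.

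**Figure D3:**
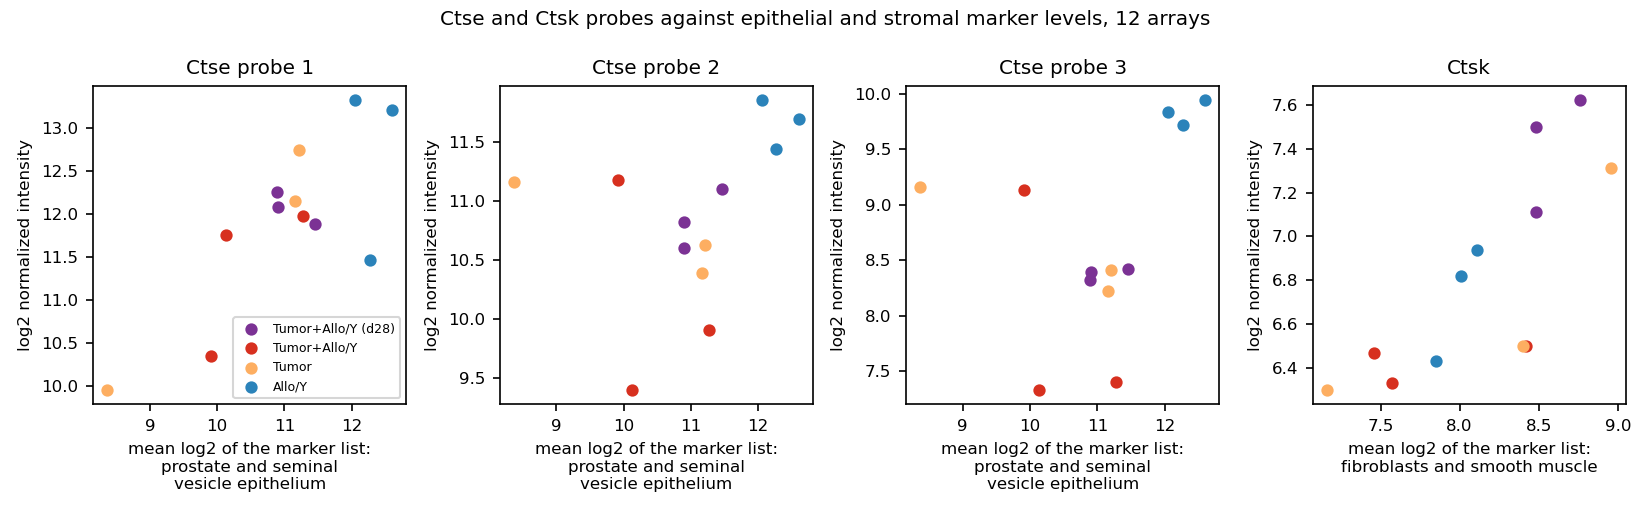
Levels of the 3 Ctse probes against the mean log2 level of the epithelial marker list, and of Ctsk against that of the fibroblast and smooth muscle list, with 1 point per array coloured by group. Ctse probe 1 climbs with the epithelial level, and Ctsk climbs with the stromal level. Ctse probes 2 and 3 are high both in the 3 Allo/Y arrays and in samples 9 and 6 at low epithelial level. On probe 2, but not on probe 3, day 28 sample 11 lies about as high as samples 9 and 6.

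Ctsk, the collagen-degrading cysteine protease of osteoclasts that fibroblasts also make, had its highest mean level at day 28. Its probe (ILMN_2711163) had levels of 7.11, 7.62 and 7.50 in Tumor+Allo/Y (d28), 6.47, 6.50 and 6.33 in Tumor+Allo/Y, and 7.31, 6.50 and 6.30 in Tumor, against 6.82, 6.43 and 6.94 in Allo/Y. The day 28 arrays were above all arrays of Tumor+Allo/Y and Allo/Y, while Tumor sample 4 fell among them. The only cathepsin probe not to overlap between Tumor+Allo/Y (d28) and Tumor+Allo/Y was this one, against 22.6% of all probes. The difference of Tumor+Allo/Y (d28) from Tumor+Allo/Y was 0.98 ± 0.25 (1.97-fold), which did not pass the threshold (unadjusted p = 0.00258, adjusted p = 0.0678). It passed without Tumor sample 4 (adjusted p = 0.0304) or Tumor sample 6 (0.0323). The difference from Allo/Y was 0.68 ± 0.25 and only just called (adjusted p = 0.0496), and 9 of the 12 omissions of a single array ended that call, and at equal leukocyte markers it was -1.39. Of 11 measured fibroblast and smooth muscle markers, 4 were called higher in Tumor+Allo/Y (d28) than in Tumor+Allo/Y and none lower, with mean levels of 8.58 and 7.81. Over all 11971 genes, 230 were called higher and 57 lower there. Against Tumor, whose mean level was 8.17, none of these markers was called at day 28. With that marker level as a covariate the Ctsk difference from Tumor+Allo/Y was 0.65 ± 0.22 (adjusted p = 0.0957).

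No cathepsin probe distinguished Tumor+Allo/Y from Tumor. In that comparison 0 of the 20 probes were called, none had an unadjusted p under 0.05, and both groups overlapped on every one of them, where 0.00434% of all probes, which is 1 probe, were called by limma, 4.29% had an unadjusted p under 0.05 and 7.2% did not overlap. The 95% interval for Ctss ran from -0.59 to 1.14 and that for Ctsc probe 1 from -0.58 to 0.85, so that differences of up to about 1 log2 unit remain inside them. Leaving out samples 6 and 8 takes the highest Ctss level from Tumor and the lowest from Tumor+Allo/Y, so that the choice of arrays itself widens the difference. Without them 8 cathepsin probes were called higher in Tumor+Allo/Y, among them Ctss (1.05 ± 0.26, adjusted p = 0.0242) and all probes of Ctsc and Ctsz. Both groups then had 1 array fewer, and of all 23054 probes 1717 were called higher and 2297 lower.

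Between 28 days and 1 week after the combined transfer, no cathepsin probe was called either, where limma called 2.64% of all probes. Of the 20 probes, 3 had an unadjusted p under 0.05, against 19.5% of all probes: Ctsk, given above, and both Ctsz probes, whose differences were -0.80 ± 0.33 and -0.77 ± 0.33 (adjusted p = 0.222 and 0.232). The Ctsc probes stood at -0.64 ± 0.33 to -0.91 ± 0.46 and Ctss at -0.26 ± 0.39, also without a call. Without samples 6 and 8 the 5 probes of Ctsc and Ctsz were called lower at day 28, at -0.83 to -1.29, and Ctsk was called higher (1.01 ± 0.25, adjusted p = 0.0192). Sample 8 held the lowest Tumor+Allo/Y level on each of those 5 probes, so that leaving it out itself widens their differences. In that fit 2593 of all 23054 probes were called higher and 2613 lower. The mean level of neutrophil markers was 7.92 at day 28 and 8.94 at 1 week, that of macrophage markers 11.24 and 11.73, and that of T cell markers 11.52 and 10.00, and the part of these in the values above was not tested.

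At day 28 most leukocyte cathepsins were still above Allo/Y at 1 week against all RNA, a comparison in which transfer and time differ together. At equal leukocyte markers no cathepsin probe was called higher, and of all 23054 probes only 259 were. In Tumor+Allo/Y (d28) against Allo/Y, 11 of the 20 probes were called higher (19.9% of all probes), 1 lower (21.8%) and 8 were not called, with medians of 0.61 and 0.01, and 15 probes did not overlap (62.7% of all probes). The Ctsc probes were higher by 1.11 ± 0.33, 1.52 ± 0.42 and 1.41 ± 0.46 (adjusted p = 0.0196, 0.0149 and 0.0305) and the Ctsz probes by 0.98 ± 0.33 and 1.16 ± 0.33 (adjusted p = 0.0365 and 0.0163). The Ctsh probes, at 0.41 ± 0.20 and 0.46 ± 0.19, were not called (adjusted p = 0.114 and 0.0739). Ctsa was higher on probes 1, 2 and 3, by 1.31 ± 0.38, 1.06 ± 0.24 and 0.85 ± 0.24, and Ctse lower on probe 3, at -1.45 ± 0.41 (adjusted p = 0.0167). Without day 28 sample 12 the count of cathepsin probes called higher was 3, and without Allo/Y samples 1 and 3 in turn it was 4 and 6. Of all 23054 probes, 3749, 3510 and 3626 were called higher in those fits, so the counts of 3 and 4 are near the share over all probes. In Tumor+Allo/Y (d28) against Tumor no cathepsin probe was called, where limma called 3.02% of all probes, and 1 had an unadjusted p under 0.05, against 20.7% of all probes. The values for Ctss were then 0.02 ± 0.39 and for Ctsk 0.71 ± 0.25 (adjusted p = 0.14).

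What the leukocyte cathepsins did relative to leukocyte RNA depended on the scale. Quantile normalization compares each gene with all RNA on the array, whereas the arrays can also be shifted to an equal mean of 14 genes of all leukocytes. That shift moved the median of all probes to -2.15 in Tumor+Allo/Y against Allo/Y, to -1.98 in Tumor against Allo/Y and to -2.06 in Tumor+Allo/Y (d28) against Allo/Y, and 0 cathepsin probes were then called higher in any of the 3. Of all 23054 probes, 215, 172 and 259 were called higher in these comparisons, and 21467, 21528 and 21320 lower. In Tumor+Allo/Y against Allo/Y, Ctss stood at 0.01 ± 0.25, the Ctsc probes at -0.42 ± 0.20, 0.24 ± 0.27 and 0.16 ± 0.31 and the Ctsz probes at -0.39 ± 0.21 and -0.24 ± 0.20, none of them called. In Tumor, Ctss stood at -0.10 ± 0.25 and the Ctsc probes at -0.40 ± 0.20, 0.16 ± 0.27 and 0.01 ± 0.31, not called, while Ctsz was not called on probe 1 (-0.44 ± 0.21) and lower on probe 2 (-0.51 ± 0.20, adjusted p = 0.0286). At day 28, Ctss stood at -0.15 ± 0.25 and was not called, whereas Ctsc probe 1 was lower (-0.97 ± 0.20, adjusted p = 0.000664), as were both Ctsz probes (-1.10 ± 0.21 and -0.91 ± 0.20, adjusted p = 0.000324 and 0.000906). The other Ctsc probes, at -0.56 ± 0.27 and -0.67 ± 0.31, were not called there. Ctsh, at -1.55 ± 0.21 and -1.53 ± 0.20, and Ctsb, at -1.54 ± 0.23, were called lower on that scale in Tumor+Allo/Y (adjusted p from 1.5e-05 to 4.35e-05), where they were higher on the quantile-normalized one. In each of the 3 comparisons Ctsh and Ctsb were called lower on this scale, as were most probes on the array, and Ctss was not called. In Tumor+Allo/Y the Ctsh and Ctsb differences were smaller in size than the median of all probes, -2.15.

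**Figure D4:**
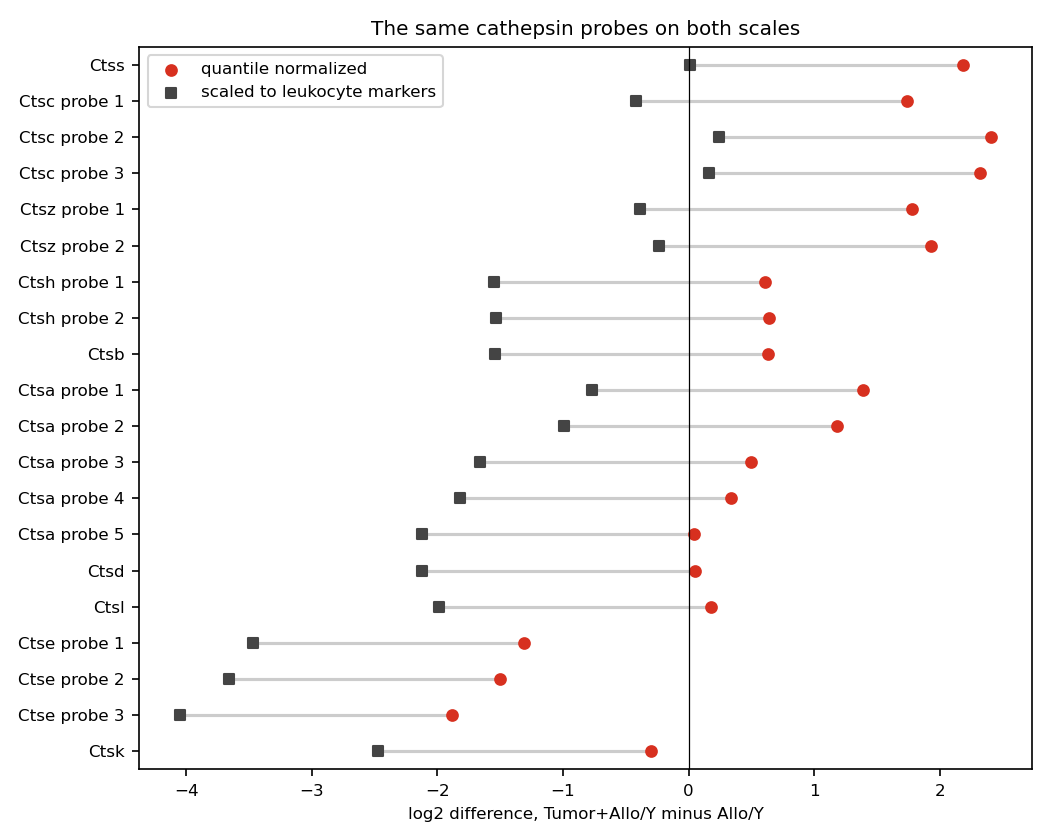
Log2 difference of Tumor+Allo/Y from Allo/Y for each cathepsin probe after quantile normalization (red circles) and after shifting the arrays to equal leukocyte marker levels (dark squares). On the second scale Ctss, Ctsc and Ctsz lie between -0.42 and 0.24, Ctsh, Ctsb and Ctsa lie below 0, and the Ctse probes fall below -3. The median of all probes on that scale was -2.15.

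Among 57 measured genes that act with the cathepsins, 21 were called higher in Tumor+Allo/Y than in Allo/Y, 8 lower and 28 were not called, and the median was 0.33. In Tumor against Allo/Y the counts were 18, 7 and 32, and in Tumor+Allo/Y (d28) against Allo/Y 17, 7 and 33. Over all 11971 genes, 2421 were higher and 3212 lower in the first of these comparisons, 2124 and 2565 in the second, and 2235 and 2902 in the third. These directions are against all RNA: on the scale of equal leukocyte markers 1 gene was higher and 52 were lower in Tumor+Allo/Y, and 20 of the 29 called genes turned their sign. Most of the array moved the same way there, with 215 of all 23054 probes called higher and 21467 lower. Of the other cathepsins, Ctsw, a protease of cytotoxic T and NK cells, was higher than in Allo/Y by 2.84 ± 0.42 in Tumor+Allo/Y (d28), 1.60 ± 0.42 in Tumor+Allo/Y and 1.83 ± 0.42 in Tumor, and at equal leukocyte markers it was not called in Tumor+Allo/Y (-0.57 ± 0.57). Ctsf was lower, at -2.23 ± 0.67, -2.60 ± 0.67 and -2.30 ± 0.67 in the same groups and lower on both scales. Ctso, which was above background on all 3 Allo/Y arrays and on none at day 28, was at least 2.03-fold lower there (adjusted p = 0.00036), and Ctsg, a neutrophil serine protease, was not called.

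Genes of the class II pathway in which Ctss acts were among those called. Ciita, the master regulator of class II genes, was higher than in Allo/Y by 3.4 ± 0.40 in Tumor+Allo/Y (adjusted p = 0.000202) and by 3.34 ± 0.40 in Tumor (adjusted p = 0.000316), and it was still higher in Tumor+Allo/Y at equal leukocyte markers (1.23 ± 0.27, adjusted p = 0.000855). Ifi30, a thiol reductase that prepares antigens for the cathepsins, was higher by 1.96 ± 0.41 and 1.77 ± 0.41, and Cd74, the invariant chain that Ctss cleaves, by 0.82 ± 0.17 and 0.93 ± 0.17. At equal leukocyte markers Ifi30 was not called (-0.21 ± 0.26) and Cd74 was lower (-1.35 ± 0.25) in Tumor+Allo/Y. Since 21467 of all 23054 probes were called lower on that scale, a lower call there does not set a gene apart. For targeting and maturation, Lgmn, the protease that matures several cathepsins, was higher by 0.71 ± 0.18 in Tumor+Allo/Y, Gnptab, which builds the mannose 6-phosphate tag, by 1.18 ± 0.22 and M6pr, a receptor for the tag, by 0.80 ± 0.13, but all 3 were lower at equal leukocyte markers, at -1.45 ± 0.26, -0.99 ± 0.17 and -1.37 ± 0.18. The other tag receptor, Igf2r, was lower at -1.08 ± 0.26, and Sort1, a sorting receptor independent of the tag, at -2.54 ± 0.57, and both were lower on that scale too. Glb1, the partner of Ctsa, was lower on both scales, at -1.58 ± 0.27 against all RNA in Tumor+Allo/Y (adjusted p = 0.00125), and Neu1 was not called. Other lysosomal hydrolases were mixed, 6 of 20 higher and 2 lower, with Lipa, the acid lipase, at 1.78 ± 0.25 (-0.39 ± 0.30 and not called at equal leukocyte markers) and Gaa, the acid glucosidase, at -1.38 ± 0.29.

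Among the inhibitors, Cst7, cystatin F, an inhibitor of Ctsc in cytotoxic cells, was the one called at day 28. Its levels were 9.80, 9.44 and 9.07 in Tumor+Allo/Y (d28), 8.24, 8.10 and 8.15 in Tumor+Allo/Y, and 8.39, 8.55 and 8.10 in Tumor, against 5.94, 6.45 and 6.38 in Allo/Y. The day 28 arrays were above all others and the Allo/Y arrays below all others. Cst7 was higher at day 28 than in Tumor+Allo/Y by 1.28 ± 0.21 (adjusted p = 0.0162) and than in Tumor by 1.09 ± 0.21 (adjusted p = 0.0282). It was the only one of the 57 pathway genes called in either comparison. Over all 11971 genes, 230 were called higher and 57 lower in the first comparison, and 205 and 115 in the second. A single call among 57 genes is near that share. At equal leukocyte markers the Cst7 differences were 1.37 ± 0.30 and 1.03 ± 0.30 and were not called (adjusted p = 0.0903 and 0.137). Against Allo/Y it was higher by 3.18 ± 0.21 in Tumor+Allo/Y (d28), 1.90 ± 0.21 in Tumor+Allo/Y and 2.09 ± 0.21 in Tumor, and at equal leukocyte markers it remained higher at day 28 (1.11 ± 0.30, adjusted p = 0.00432) and was not called in Tumor+Allo/Y (-0.26 ± 0.30). Cst3 and Cstb, the widely expressed cystatins, were not called in any comparison. T cell markers were also higher at day 28 than in Tumor+Allo/Y, 4 of 6 being called, where 230 of all 11971 genes were called higher. The part of T cell levels in the Cst7 values was not tested.

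**Figure D5:**
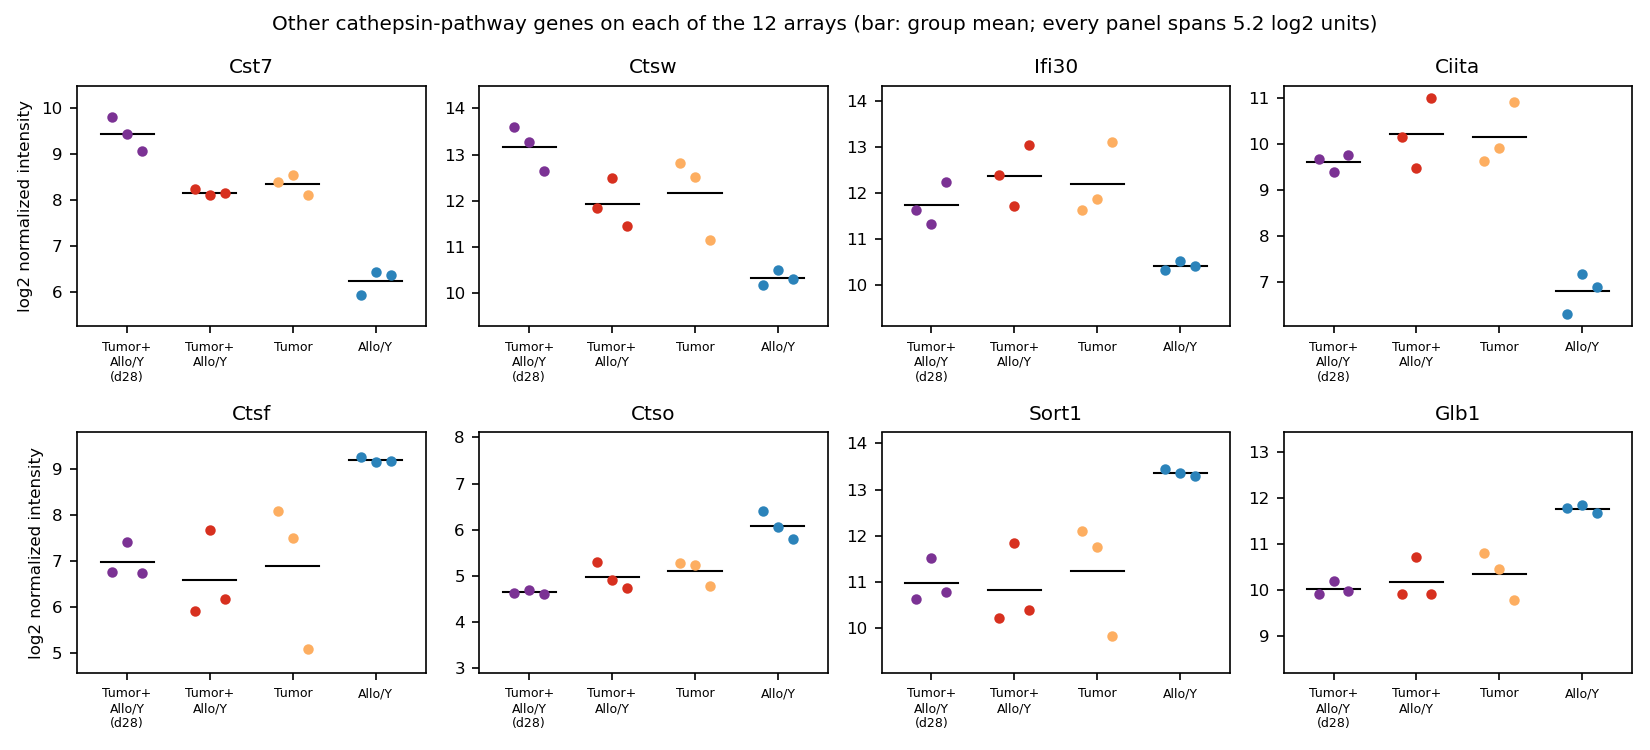
Log2 normalized intensity of 8 genes of the cathepsin pathway, with 1 point per array and a bar at each group mean. Cst7 and Ctsw are highest at day 28, Ifi30 and Ciita are lowest in Allo/Y, and Ctsf, Ctso, Sort1 and Glb1 are highest in Allo/Y.

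The genes whose levels were most like each cathepsin over the 12 arrays, by Pearson's r among 11971 genes, are given as a description, since the arrays share their 4 groups. Ctss was followed most closely by Eif4e3 (0.989), Klra2 (0.988) and Lair1 (0.986), Ctsc by Slc11a1 (0.996), a metal transporter of phagosomes, and by Gapdh and Pilra (both 0.995), and Ctsz by Nrros (0.995), Pira1 (0.992) and F10 (0.991). Ctsh was most like Csf1r (0.952), the receptor for the macrophage growth factor, Prcp (0.951) and Tec (0.943). Ctsb was most like Ppp2r5c (0.968), Ccl7 (0.966) and Eps15 (0.962). Ctsk was most like Igfbp6 (0.924), Ngfr (0.913) and Susd2 (0.9), and it correlated at 0.78 with the fibroblast and smooth muscle level and at -0.10 with Ctss, its immediate neighbour on chromosome 3. Ctse probe 1 was most like Myo1e (0.935), Camk2b (0.915) and Fndc5 (0.904). The dim Ctsd and Ctsl probes had looser matches, led by Wdr25 (0.846) and Txnrd1 (0.911).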

How the data were processed

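CD45+ cells from the prostate of 12 mice were measured on Illumina mouse bead arrays, 1 array per mouse, with biotin-labelled cRNA, per the labels' protocols. The deposited table holds each probe's intensity, not normalized between arrays, and a detection p-value, per the file headers. A second deposited table holds normalized intensity on a linear scale by the authors, and its method is not given in the sources used here. The submitters' processing notes name GenomeStudio without a version. The array's genome build is not given in the sources used here.

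Intensities were background-corrected with limma's neqc (offset 16, with the negative-control mean and spread taken from detection p-values), quantile-normalized and put on the log2 scale, starting from the deposited values. The filter kept probes whose detection p was below 0.05 on 3 or more arrays. One limma 3.58.1 fit in R 4.3.3 gave a mean per group (8 residual and 2.74 prior degrees of freedom), with two-sided moderated tests and Benjamini-Hochberg adjustment over all 23054 kept probes. The number of arrays limits the precision: an exact permutation test of 3 against 3 cannot go below p = 0.1. The script was tested on simulated data. Probe names come from the platform annotation, which can be old, with symbols updated where RefSeq allowed, and 3819 kept probes had no symbol and none was named from the 18 with several.

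Every cathepsin probe is reported. Per pathway list and comparison, up to 4 called genes with the largest differences could be named, and for each cathepsin the 3 genes with the highest Pearson r. Genes named outside that rule were named after their values were seen. The cathepsins, gene lists and marker lists were chosen with earlier results of these data known. Alternatives covered background, normalization, filters, array weights, marker covariates, scaling to leukocyte markers and leaving out arrays.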

Additional observations from a re-analysis of the deposited data

How the results depend on the processing

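Of the single-probe differences recomputed under other settings, 481 kept their direction and their side of the threshold, 62 lost the call, 3 gained one and 27 reversed. When single arrays were left out, 376 kept both, 66 lost the call, 2 gained one and none reversed. These numbers cover the cathepsin probes called in the main fit, plus Ctsk in Tumor+Allo/Y (d28) against Tumor+Allo/Y, which had no call to lose. Only that Ctsk difference could gain a call, and all gains are its own. Calls gained by other cathepsin probes enter only the counts below. The cause of the changes was not tested. All 27 reversals came from scaling to leukocyte markers, which by construction subtracts the leukocyte difference. They were, in Tumor+Allo/Y against Allo/Y, -0.77 and -0.99 for Ctsa probes 1 and 2, -1.54 for Ctsb, -0.42 for Ctsc probe 1, -1.55 and -1.53 for Ctsh, and -0.39 and -0.24 for Ctsz. For Tumor against Allo/Y they were -1.20 for Ctsa probe 2, -1.55 for Ctsb, -0.40 for Ctsc probe 1, -1.46 and -1.32 for Ctsh, -0.10 for Ctss, and -0.44 and -0.51 for Ctsz. At day 28 against Allo/Y they were -0.76, -1.02 and -1.23 for Ctsa, -1.54 for Ctsb, -0.97, -0.56 and -0.67 for Ctsc, -1.39 for Ctsk, -0.15 for Ctss, and -1.10 and -0.91 for Ctsz.

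The comparison of Tumor+Allo/Y with Allo/Y called 10273 probes. The count was 5736 with 1 probe per gene, 6231 with the epithelial covariate, 2740 with a minimum fold of 1.5 and 21682 with leukocyte scaling, and 6992 to 11905 without single arrays. Cathepsin probes called higher numbered 6 with the minimum fold, 0 with leukocyte scaling and 9 to 12 without single arrays, and those called lower 1 with the minimum fold, 1 without normalization, 13 with leukocyte scaling and 2 throughout without single arrays. That of Tumor with Allo/Y called 8495 probes. The count was 4820 with 1 probe per gene, 15974 with array weights, 3428 with the epithelial covariate, 1543 with the minimum fold, 21700 with leukocyte scaling and 5247 to 9367 without single arrays. Cathepsin probes called higher numbered 3 with the epithelial covariate, 2 with the minimum fold, 0 with leukocyte scaling and 6 to 11 without single arrays. Those called lower numbered 6 with array weights, 2 with the epithelial covariate, with only the 2 groups compared and without samples 6 and 8, 0 with the minimum fold, without the detection filter and without normalization, 14 with leukocyte scaling and 0 to 2 without single arrays.

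At day 28, 9615 probes were called against Allo/Y. The count was 5188 with 1 probe per gene, 2676 with the minimum fold, 21579 with leukocyte scaling and 7187 to 11293 without single arrays. Cathepsin probes called higher numbered 1 with the minimum fold, 0 with leukocyte scaling and 3 to 12 without single arrays, and those called lower 4 with the epithelial covariate, 2 with only the 2 groups compared, 0 with the minimum fold and without normalization, 16 with leukocyte scaling and 0 to 2 without single arrays. Without normalization 79.4% of calls at day 28 were higher than Allo/Y, as were 77.4% in Tumor+Allo/Y and 66.7% in Tumor. With quantile normalization 4585 were higher and 5030 lower at day 28, 4807 and 5466 in Tumor+Allo/Y, and 4089 and 4406 in Tumor. With leukocyte scaling 1.2%, 1% and 0.8% of calls in those comparisons were higher.

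Between Tumor+Allo/Y and Tumor 1 probe was called. The count was 5817 with array weights, 4014 without samples 6 and 8, 2 with the fibroblast covariate, 0 with 1 probe per gene, the authors' table, the minimum fold, offset 50, no filter, normexp, only 2 groups or leukocyte scaling, and 0 to 1 without single arrays, and the cathepsin probes called higher numbered 10 with array weights and 8 without samples 6 and 8. Between day 28 and 1 week of Tumor+Allo/Y 609 probes were called. The count was 249 with 1 probe per gene, 3999 with array weights, 1659 and 1634 with the epithelial and fibroblast covariates, 14 with the minimum fold, 233 without normalization, 40 with only the 2 groups, 64 with leukocyte scaling, 5206 without samples 6 and 8 and 65 to 1536 without single arrays. Array weights and the omission of samples 6 and 8 each called 1 cathepsin probe higher and 5 lower, the epithelial covariate called 1 higher, and single omissions 0 to 1. Between Tumor+Allo/Y (d28) and Tumor 696 probes were called. The count was 256 with 1 probe per gene, 8188 with array weights, 2457 and 2608 with the covariates, 7 with the minimum fold, 1197 without normalization, 16 with only the 2 groups, 26 with leukocyte scaling, 1865 without samples 6 and 8 and 16 to 828 without single arrays. Cathepsin probes called higher numbered 4 with array weights, 1 with the epithelial covariate and 1 without samples 6 and 8, and 97.6% of calls were higher without normalization, 81.1% with cyclic loess and 38.5% with leukocyte scaling, against 490 higher and 206 lower with quantile normalization. Between day 28 and 1 week of Tumor+Allo/Y, 68.8% were higher with leukocyte scaling, against 506 higher and 103 lower. The F test called 9898 probes, 5479 with 1 probe per gene, 18740 with array weights, 22110 with leukocyte scaling and 6173 to 11943 without single arrays, with 7 to 14 cathepsin probes.

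No paired analysis was possible because the groups share no replicate numbers. With 3 arrays per group, small differences and the dim probes without a call in any comparison (Ctsd, Ctsl and Ctsa probes 4 and 5) could not be settled.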
